A study of Mus musculus with 5 samples.

Results

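The cells described here were 260 Ly6a-high cells of 1 single-cell RNA-seq library of mouse hindlimb skeletal muscle, SC_9. They were selected on 5 readouts of each cell: 350 to 8000 detected genes, under 20% of UMIs (unique molecular identifiers, each counting 1 captured RNA molecule) on mitochondrial genes, at least 2000 UMIs, at least 10 UMIs of Ly6a per 10000 UMIs, and fewer than 5 UMIs of Col2a1. SC_9 held 1438 cells that met the limits on genes, mitochondrial UMIs and depth, among 2001 barcodes, so the Ly6a-high cells were 18.1% of them (exact binomial 95% interval 16.1 to 20.2). The series held 28325 such cells among 34439 barcodes. The cells of comparison were the 698 cells of SC_9 with fewer than 2 Ly6a UMIs per 10000 under the same limits, Col2a1 included. Between these lay 221 cells with 2 to 10 Ly6a UMIs per 10000.

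All 5 libraries came from Prx1Cre;RosamTmG mice on a C57BL6/J background, sorted for GFP. Prx1Cre drives recombination in limb bud mesenchyme, so GFP marks cells of that lineage and all their descendants, not cells that express Prrx1 at the time of the sort. The libraries are labelled d0 (uninjured, SC3), d3 post-fracture (SC4), d5 post-fracture (SC5), d3 post-polytrauma (SC_9) and d5 post-polytrauma (SC10). Fracture was of the tibia without stabilization, and polytrauma added mechanical injury of the adjacent muscle. Each condition had 1 library, pooled from more than 1 mouse, so no condition had a replicate. SC_9 is labelled d3 post-polytrauma, but the study's source data for its d5 post-fracture sample sum to the same number of cells as SC_9 has barcodes. The library labelled d5 post-fracture holds 6915 barcodes. Of the cells with at least 2000 UMIs, 259 of 1438 in SC_9 held 5 or more UMIs of the cartilage gene Col2a1, against 0 of 6118 in SC5, 124 of 11517 in SC10, 2 of 5364 in SC4 and 1 of 3888 in SC3. The time and injury of SC_9 are therefore uncertain, and so are those of SC5, the library labelled d5 post-fracture. They do not enter the comparisons of Ly6a-high with Ly6a-low cells within a library, but they do enter the values set side by side between libraries, which are named by library for that reason.

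Ly6a encodes Sca-1, a GPI-anchored surface protein that marks fibro-adipogenic progenitors (FAPs), the mesenchymal progenitors of the muscle interstitium. Together with Pdgfra and Cd34 it is commonly used to isolate them. In many tissues Pi16+ Dpp4+ fibroblasts lie in the adventitia around vessels and Col15a1+ fibroblasts in the parenchyma, and both express Ly6a at rest. After bone injury, progenitors of this lineage produce fibrous matrix and then cartilage, whose regulators and products include Sox9, Acan and Col2a1. Ly6a is also an interferon-inducible gene.

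The Ly6a-high cells were as deeply read as the Ly6a-low cells, with a median of 31656 UMIs and 5223 genes against 32798 UMIs and 5422 genes. Their Ly6a level ran from 10.0 to 85.1 UMIs per 10000, with a median of 24.7, which rested on 8 to 279 Ly6a UMIs per cell. At the threshold, 21 members lay from 10 to under 12 UMIs per 10000 and 32 cells from 8 to under 10 lay just outside, the highest of these at 9.96. Another 14 cells passed the Ly6a limit but held 5 or more Col2a1 UMIs and were left out. Of the members' barcodes, 154 also occurred in SC10, where they held a median of 778 UMIs, 48.7 times fewer than in SC_9, and 1 came within 10 times of its SC_9 depth. With every barcode seen in another library left out, 106 Ly6a-high and 326 Ly6a-low cells gave 532 genes at least 2-fold higher, in place of 478, and 393 lower, in place of 356.

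Markers of mesenchymal progenitors that the selection did not use were present. Cd34, the sialomucin used beside Sca-1 to sort progenitors, was at 451 CPM (UMIs of a gene per 1000000 UMIs, summed over the cells of a group) in Ly6a-high cells and at 23.7 CPM in Ly6a-low cells, 19.0-fold higher with a 95% counting interval of 17.4 to 20.8. At least 1 UMI of it was seen in 252 of the 260 members (96.9%) and in 253 of the 698 Ly6a-low cells (36.2%). Free RNA also gives UMIs. In the 234 Ly6a-low cells with 5 or more Col2a1 UMIs, called cells with Col2a1 below, the share was 15.4% at a median depth of 43248 UMIs. Those cells were also chosen by low Ly6a, and whether they lack Cd34 RNA of their own was not tested. In 2000 UMIs drawn per cell the shares were 56.9%, 6.16% and 0.855%. Pdgfra, the receptor that defines FAPs, was 2.23-fold higher (256 against 115 CPM), Cxcl12, a stromal chemokine, was 1.84-fold higher (756 against 411 CPM), and the lineage gene Prrx1 was 1.67-fold higher (390 against 233 CPM). Prrx1 was thus present in both groups. Genes of blood and muscle cells were close to absent. The 8 hematopoietic markers summed to 17.6 CPM in members, the 7 myogenic markers to 0.369 CPM with 5 of them at 0, and the 4 erythroid markers to 1.35 CPM. Of 7 endothelial markers, Tek alone reached 20 CPM (26.7 against 3.22 CPM).

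**Figure D1:**
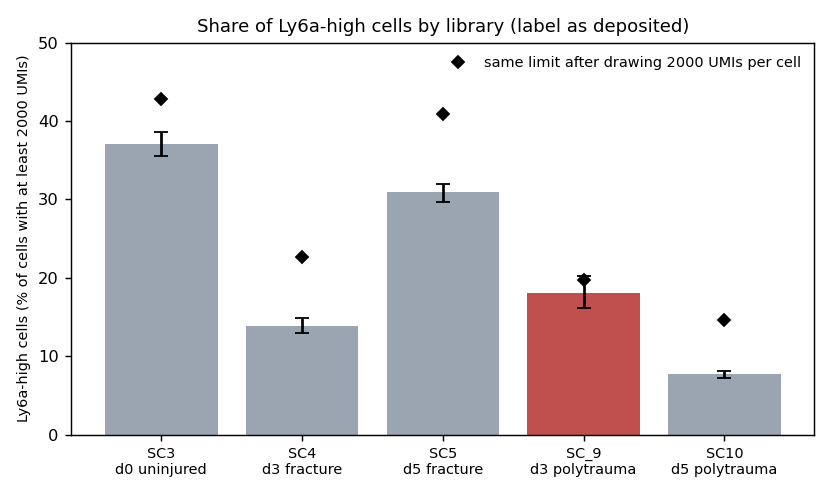
Share of Ly6a-high cells among cells with at least 2000 UMIs in each of the 5 libraries (bars, percent, with exact binomial 95% intervals for counting error) and after drawing 2000 UMIs from every cell (diamonds). SC_9 stood at 18.1% and at 19.7% after the draw, and the other libraries moved further, d5 post-polytrauma from 7.67% to 14.6%. After the draw the limit rests on few Ly6a UMIs, so cells below it can pass by sampling.

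The share of Ly6a-high cells differed between libraries. It was 37.1% in d0 (1442 cells), 13.9% in the library labelled d3 post-fracture (747 cells), 30.9% in that labelled d5 post-fracture (1888 cells), 18.1% in SC_9 and 7.67% in that labelled d5 post-polytrauma (883 cells). Drawn to 2000 UMIs per cell, the shares became 42.8%, 22.7%, 40.9%, 19.7% and 14.6%, and the order of SC_9 and the d3 post-fracture library changed places. With 1 library per condition these shares carry no test, and intervals cover counting error only.

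Among 6105 genes with at least 20 CPM in either group of SC_9, 478 (7.83%, Ly6a among them) were at least 2-fold higher and 356 (5.83%) at least 2-fold lower in the Ly6a-high cells. The median log2 ratio over all genes tested was -0.17, and centred on it the counts became 577 and 275. A gene that reached 20 CPM in 1 group alone had to be lower in the other, so list counts over tested genes are descriptions, and the main lists are also given over every member with more than 3 UMIs in either group. Over all genes without the CPM minimum, 1636 of 15503 were at least 2-fold higher and 1992 lower, with a median of -0.15. These are ratios of sums over cells of 1 library: they describe SC_9, with no test across mice.

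**Figure D2:**
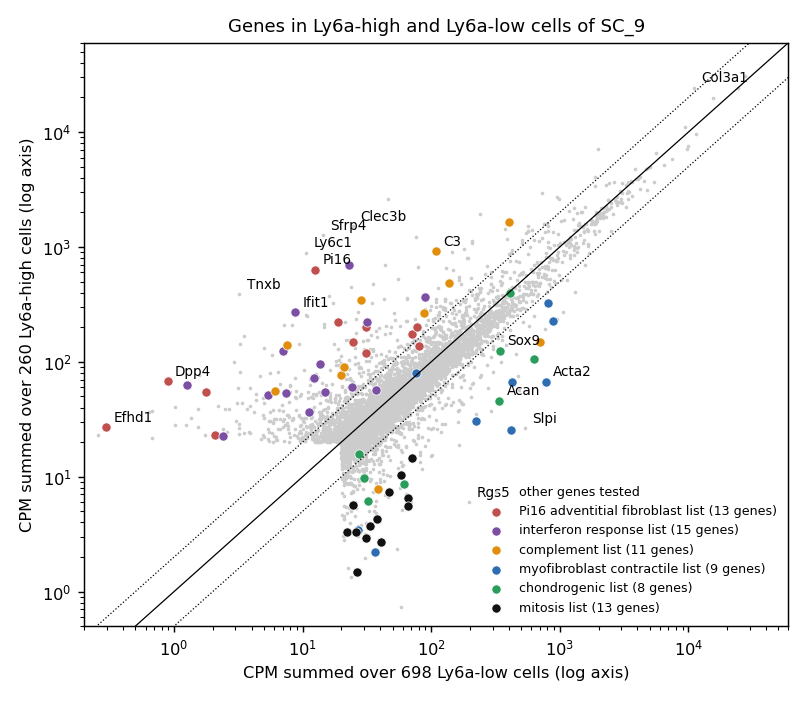
Summed CPM of each gene tested in the 260 Ly6a-high cells (y axis) against the 698 Ly6a-low cells (x axis) of SC_9, both log axes, with equality (solid) and 2-fold (dotted) lines and 6 gene lists in color. Genes of the Pi16, interferon and complement lists lie mostly above the upper dotted line, those of the contractile, cartilage and mitosis lists below the lower one, and Col3a1 just above 2-fold.

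Genes of the Pi16 adventitial fibroblast list were among the 20 with the highest ratios. So were Tnxb and Clec3b, which are not on that list. Tnxb, which encodes the matrix glycoprotein tenascin-X, was at 388 CPM in Ly6a-high cells and 3.22 CPM in Ly6a-low cells, 120-fold higher (interval 95.9 to 153). Clec3b (tetranectin) was at 1519 against 24.7 CPM, 61.4-fold higher (56.5 to 66.9), with a UMI in 245 members (94.2%) against 14.5% of the cells with Col2a1. Pi16, a peptidase inhibitor that names the adventitial fibroblast state, was at 632 against 12.5 CPM, 50.7-fold higher (45.0 to 57.2). Dpp4 (CD26), a surface peptidase of the same state, was at 67.5 against 0.891 CPM, 75.8-fold higher (49.1 to 123). Of the 13 genes of the Pi16 adventitial fibroblast list that were tested, 12 were at least 2-fold higher, none lower, with a median log2 ratio of 3.46, but 7 of the 13 reached 20 CPM in the Ly6a-high cells alone. Over all 18 genes of the list, 16 were at least 2-fold higher and none lower, with a median of 2.64. They included Efhd1 (26.9 against 0.297 CPM), Cadm3 (54.2 against 1.78 CPM), the semaphorin Sema3c (222 against 18.8 CPM) and the decoy chemokine receptor Ackr3 (201 against 31.2 CPM). Ugp2 was within 2-fold. The 20 highest also held other genes outside the Pi16 list. They included Ackr1, an atypical chemokine receptor (22.9 against 0.255 CPM, 89.8-fold), and Ace, the angiotensin-converting enzyme (208 against 7.17 CPM, 29.0-fold). Gda, guanine deaminase (48.5-fold), the collagen VI chain Col6a6 (54.9-fold), the carboxylesterase Ces2g (39.7-fold) and Ifi207 (33.8-fold) were others. The hemicentin Hmcn2 (31.9-fold) is a gene of the Col15a1 parenchymal fibroblast list. Hmcn2 had a UMI in 42 members (16.2%), and the tenth with the highest level carried 90.9% of its per-cell level. In 2000 UMIs drawn per cell, Ackr1 moved from 6.49 to 4.42 on the log2 scale and Efhd1 from 6.50 to 4.01. Cadm3 moved the other way, from 4.93 to 6.23.

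Of the 5 Ly6 family genes tested besides Ly6a, 2 were at least 2-fold higher and 2 lower, with a median log2 ratio of 0.97. Ly6c1 was at 894 against 10.6 CPM, 84.0-fold higher (74.1 to 95.7), with a UMI in 255 of 260 members (98.1%). The shares were 24.1% in Ly6a-low cells and 25.2% in cells with Col2a1, at median depths of 32798 and 43248 UMIs. Whether those UMIs came from free RNA or from low expression was not tested. Ly6a (chr15:74994877-74998031, minus strand) and Ly6c1 (chr15:75044018-75048830, minus strand; GENCODE M21, GRCm38) lie 46.0 kb apart. The Ly6 genes are paralogs, and how reads that fit more than 1 copy were counted was not examined, so single members are uncertain. Ly6e was 2.78-fold higher, while Plaur (urokinase receptor) and Cd59a, a complement inhibitor, were 2.26-fold and 4.90-fold lower. Other progenitor surface genes also stood higher: Cd55 by 18.5-fold and Cd248 (endosialin) by 4.25-fold, while Thy1 was 1.99-fold and Eng 1.56-fold higher.

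Genes of the Col15a1 parenchymal fibroblast list were mostly higher. Of 12 tested, 8 were at least 2-fold higher and 2 lower, with a median log2 ratio of 1.50. Over all 16 genes of the list 9 were higher and 2 lower, with a median of 1.06. The tested genes' median was 1.09 in 2000 UMIs drawn per cell and 2.46 with cells of other types left out of the Ly6a-low group. The chemokine Cxcl14 was at 695 against 43.9 CPM (15.8-fold), Gdf10, a TGF-beta family ligand, at 132 against 4.96 CPM (26.5-fold), and Col15a1 itself at 62.2 against 15.2 CPM (4.08-fold). Penk (enkephalin precursor) and the peptidase Mme were 2.64-fold and 2.01-fold lower, but came within 2-fold under alternatives. On the log2 scale, Penk was at -0.70 with Ly6a at 5 UMIs per 10000 and Mme at -0.58 in 2000 UMIs drawn per cell. Of the higher genes, Col4a1 (1.03) and Col4a2 (1.08) also came within 2-fold. Col4a1 fell to 0.47 in 2000 UMIs drawn per cell and Col4a2 to 0.60 with each cell weighted equally. With cells of other types left out of the Ly6a-low group they rose to 2.84 and 2.77. Smoc2 (-0.26) and G0s2 (-0.23) were within 2-fold. Hsd11b1 had a UMI in 14.2% of members and 13.0% of Ly6a-low cells.

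Matrix genes of resting and of repairing tissue parted in the same cells. Of the 17 resting fibroblast matrix genes, 11 were at least 2-fold higher and 1 lower, with a median log2 ratio of 1.61. Dpt (dermatopontin) was 5.22-fold, Gsn (gelsolin) 8.07-fold and Dcn (decorin) 3.63-fold higher, while Mfap4 and Fbln2 were within 1.05-fold and Fbln5 was 2.06-fold lower. Of the 15 fibrogenic matrix genes, 1 was at least 2-fold higher and 3 lower, and the list median was -0.12, close to that of all genes. Col1a1 was at 24045 CPM in Ly6a-high and 24359 CPM in Ly6a-low cells, and Postn (periostin) at 3747 and 4505 CPM. Col3a1, the type III collagen chain, was the exception above, at 24258 against 11104 CPM. Tnc (tenascin-C), Col12a1 and Col8a1 were 4.52-fold, 4.01-fold and 3.54-fold lower, and Aspn (asporin) was 1.89-fold lower. The Ly6a-high cells therefore carried both a high level of the resting matrix genes and a level of Col1a1 that differed from that of the Ly6a-low cells by 1.01-fold. All 16 genes for collagen-processing enzymes and chaperones of the secretory path had a log2 ratio below 0. Their median was -0.51, against -0.17 over all genes, and none passed 2-fold.

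**Figure D3:**
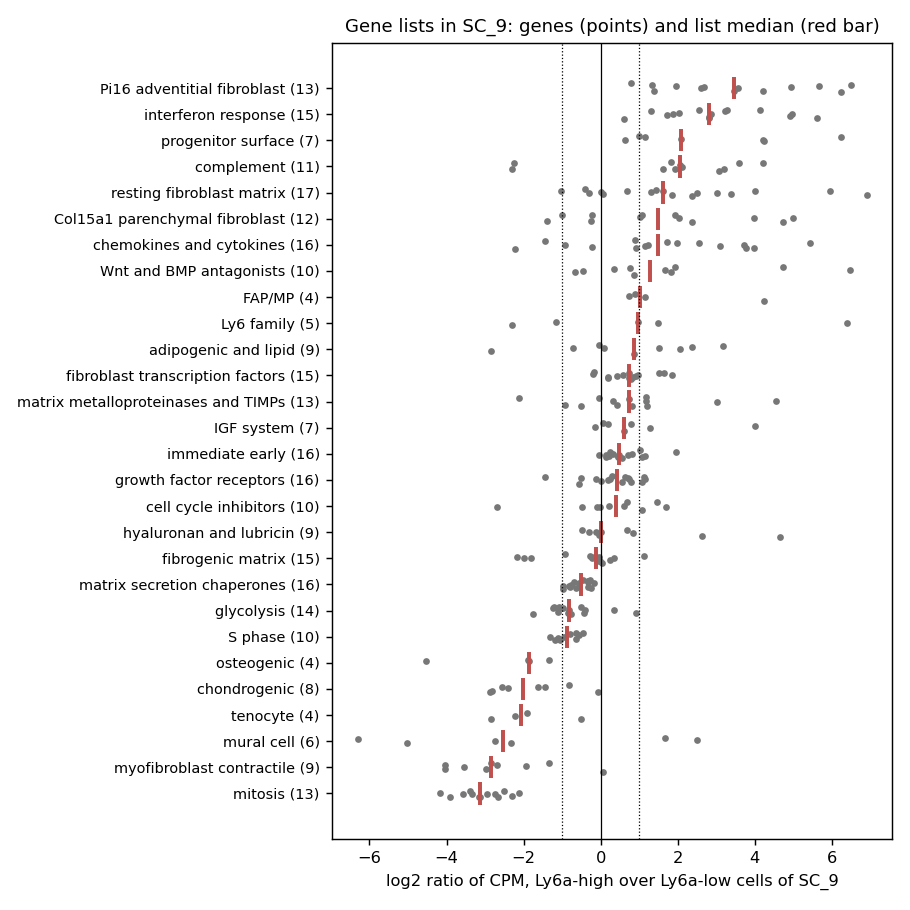
Log2 ratio of CPM between Ly6a-high and Ly6a-low cells of SC_9 for every gene tested (points, jittered vertically) in each list with at least 4 genes tested (number in brackets), with list medians (red bars), and lines at 0 and at 2-fold. Medians are over genes past 20 CPM in either group, which many genes of the Pi16 (3.46), interferon (2.81) and mitosis (-3.14) lists reached in 1 group alone.

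Secreted immune and signaling genes were among the genes that stood higher. Of 11 complement genes tested, 9 were at least 2-fold higher, with a median log2 ratio of 2.05. C3, the central component, was at 913 against 108 CPM (8.42-fold, 8.05 to 8.81), C4b at 342 against 28.2 CPM (12.2-fold), and the C1 inhibitor Serping1 at 1648 against 399 CPM (4.13-fold). C1qtnf3, a C1q-related secreted protein, and Cd59a were the 2 that were lower. Of 16 chemokine and cytokine genes, 10 were at least 2-fold higher and 2 lower. Ccl8 was at 142 against 3.27 CPM (43.4-fold), Ccl11 (eotaxin) at 200 against 14.6 CPM (13.8-fold), Cxcl10 at 669 against 78.2 CPM (8.55-fold) and Il6 at 440 against 112 CPM (3.95-fold). Lif and Cxcl5 were 4.70-fold and 2.71-fold lower.

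Secreted antagonists of Wnt and BMP signaling followed the same direction in part. Sfrp4 was at 1271 against 14.4 CPM, 88.4-fold higher (79.3 to 98.8), with a UMI in 217 members (83.5%) against 22.2% of Ly6a-low cells and 21.8% of cells with Col2a1. Of 10 tested antagonists, 5 were at least 2-fold higher and none lower, Dkk2 by 3.21-fold and Chrdl1 by 3.54-fold, whereas Sfrp1 was 1.38-fold lower and Sfrp2 1.70-fold higher. Igfbp6 was 16.1-fold and Igfbp5 2.44-fold higher, and the other 5 IGF genes tested stayed within 2-fold. Among 15 fibroblast transcription factors, Ebf2 (3.62-fold), Osr1 (3.09-fold) and Klf4 (2725 against 953 CPM, 2.86-fold) were at least 2-fold higher. The matrix protease Mmp3 was 23.2-fold higher and Mmp13, a collagenase of hypertrophic cartilage and bone, 4.33-fold lower.

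Interferon-stimulated genes stood higher almost without exception. Of 15 genes on the list, 14 were at least 2-fold higher and none lower, with a median log2 ratio of 2.81. All 15 were tested, 10 of them through the Ly6a-high cells alone. Ifit1, which binds foreign RNA, was at 270 against 8.70 CPM (31.1-fold, 26.9 to 36.0), Ifi27l2a at 694 against 23.1 CPM (30.1-fold), Rsad2 (viperin) at 62.7 against 1.27 CPM (49.3-fold) and the ubiquitin-like Isg15 at 220 against 31.4 CPM. The signal was unequal between members: 49 of the 260 held an Rsad2 UMI (18.8%, against 0.427% of cells with Col2a1), and the tenth of members with the highest level carried 94.5% of its per-cell level, against 36.3% for Ifi27l2a. RefSeq promoters (GRCm38.p6) were at hand for 10 of the 15 genes. The interferon-stimulated response element, searched as GAAA, any 2 bases and GAAA, or on the other strand TTTC, any 2 bases and TTTC, in the 250 bases before the start site, occurred in 5 of these 10, against 2.98% of the 32851 promoters of the table. The promoters of 4 of these 5 genes are given to show where it lay, Bst2 being the other, 5′ to 3′ on the strand of the gene, with matches in capitals:
Isg15, chr4:156200819-156201068, minus strand: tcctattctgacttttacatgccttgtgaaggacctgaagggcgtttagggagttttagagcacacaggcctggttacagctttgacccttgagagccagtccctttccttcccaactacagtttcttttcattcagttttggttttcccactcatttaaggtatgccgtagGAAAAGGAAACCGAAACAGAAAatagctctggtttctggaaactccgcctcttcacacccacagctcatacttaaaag
Ifit1, chr19:34640639-34640888, plus strand: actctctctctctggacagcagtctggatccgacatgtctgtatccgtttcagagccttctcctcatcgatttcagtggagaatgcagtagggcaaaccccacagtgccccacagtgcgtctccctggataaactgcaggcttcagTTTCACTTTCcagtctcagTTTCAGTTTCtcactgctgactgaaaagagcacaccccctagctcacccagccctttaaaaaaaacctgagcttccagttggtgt
Ifit3, chr19:34583279-34583528, plus strand: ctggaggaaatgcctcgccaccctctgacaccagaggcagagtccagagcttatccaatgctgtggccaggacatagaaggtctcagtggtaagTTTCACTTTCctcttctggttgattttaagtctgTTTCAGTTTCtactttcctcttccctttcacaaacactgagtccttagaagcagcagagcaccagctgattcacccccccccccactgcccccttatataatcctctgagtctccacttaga
Rsad2, chr12:26456453-26456702, minus strand: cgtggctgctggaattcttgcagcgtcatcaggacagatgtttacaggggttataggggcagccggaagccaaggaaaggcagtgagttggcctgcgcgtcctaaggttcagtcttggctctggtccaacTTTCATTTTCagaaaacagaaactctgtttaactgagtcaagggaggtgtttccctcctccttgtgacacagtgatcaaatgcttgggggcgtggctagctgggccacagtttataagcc
The Isg15 match is made of 3 overlapping ones, the first starting 78 bases before the start site, and those of Ifit1 start 104 and 85 bases before it. A match describes the letters of the window, and binding was not measured here. The list was chosen as interferon-stimulated genes, so its share of matches describes the list and not these cells. Counted over genes in place of promoters, 3.46% of those in the table held the motif. For Bst2 the bases after the start site were not found in a GENCODE transcript of the gene, so its window is less certain.

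Of the 15 genes with the lowest ratios, 5 were contractile or mural genes (Myh11, Rgs5, Tagln, Cnn1 and Acta2) and 5 were mitosis or histone genes (Hmmr, Hist1h1b, Cenpf, Ube2c and Cenpa). The others were the bone matrix gene Ibsp, Slpi, Pdzrn4, Tinagl1 and Net1. Tinagl1 moved from -3.83 to -0.25 on the log2 scale, within 2-fold, with cells of other types left out of the Ly6a-low group. Ibsp moved from -4.54 to -1.91 with dividing cells left out, still past 2-fold. Few cells of either group carried some of these genes. Ibsp had a UMI in 8.45% of Ly6a-low cells and 5.38% of members, with 1 Ly6a-low cell at 167 UMIs per 10000. For Myh11 the shares were 7.16% and 2.31%, and for Rgs5 11.6% and 6.54%. Of 9 contractile genes tested, 8 were at least 2-fold lower, with a median log2 ratio of -2.85: Acta2 (smooth muscle actin) was at 67.0 against 782 CPM (11.7-fold lower) and Tagln at 25.4 against 420 CPM (16.5-fold lower), while Lrrc15 was 1.04-fold higher. Of 8 cartilage genes other than Col2a1, 6 were at least 2-fold lower and none higher, and 4 of the 8 reached 20 CPM in the Ly6a-low cells alone. Over the 14 cartilage genes with more than 3 UMIs, 11 were lower, with a median of -1.72. Sox9, the master regulator of chondrogenesis, was at 125 against 341 CPM (2.73-fold lower), the proteoglycan Acan at 46.0 against 339 CPM (7.37-fold lower) and Col11a1 at 106 against 625 CPM (5.90-fold lower), whereas Comp was within 1.04-fold. Both groups had been limited to fewer than 5 Col2a1 UMIs, and without that limit in the Ly6a-low cells the cartilage list median moved from -2.01 to -3.94. The 4 osteogenic genes tested of 9 were at least 2-fold lower, among them Runx2 (2.52-fold) and Spp1 (3.69-fold). Over the 7 osteogenic genes with more than 3 UMIs, 5 were at least 2-fold lower and 1 higher, with a median of -1.85. With barcodes seen in another library left out, Spp1 moved from -1.88 to -0.29 on the log2 scale, within 2-fold, and Runx2 moved from -1.33 to -0.91 with Ly6a at 5 UMIs per 10000. The tenth of members with the highest level carried 84.5% of the list's level. Slpi, a secreted protease inhibitor, was at 26.3 against 537 CPM.

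The 13 mitosis genes tested had a median of -3.14, but each reached 20 CPM in the Ly6a-low cells alone. Over all 18 genes of the list, 18 were at least 2-fold lower, with a median of -2.91, among them Hmmr (1.48 against 26.6 CPM) and Ube2c (5.53 against 65.5 CPM). Cells with at least 3 mitosis UMIs per 10000 were 6 of the members (2.31%) and 142 of the Ly6a-low cells (20.3%). Of the cell cycle inhibitors, Cdkn1a was 3.22-fold and Cdkn1c 2.75-fold higher, Cdkn2b 6.50-fold lower. Among 14 glycolytic genes, 5 were at least 2-fold lower and none higher, with a median of -0.82.

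The Ly6a-low cells also held more cells with markers of other types. At least 2 tenocyte markers were seen in 21.8% of them and 3.46% of members, and at least 2 mural cell markers in 5.87% and 2.31% (in 2000 UMIs drawn per cell). The 9 mural markers summed to 422 CPM in Ly6a-low cells, led by Rgs5 at 197 CPM, and 116 CPM in Ly6a-high cells, and the 7 tenocyte markers to 941 and 413 CPM. Of the 6 mural genes tested 4 were lower, but the channel genes Abcc9 (44.5 against 7.89 CPM) and Kcnj8 (32.3 against 10.2 CPM) were at least 2-fold higher in the Ly6a-high cells. Each of the 6 reached 20 CPM in 1 group alone. Over all 9 mural genes, 2 were at least 2-fold higher and 6 lower, with a median of -2.74. The median mitochondrial share was 5.66% in Ly6a-low and 3.98% in Ly6a-high cells. With dividing cells and cells with other markers left out of both groups, 237 and 386 cells remained, with 474 genes higher and 298 lower. The list medians were then 3.35 for the Pi16 list, 2.68 for interferon, 1.86 for complement, -2.25 for contractile and -2.09 for cartilage genes. The mitosis median moved to -0.71, and Myh11 and Rgs5, the genes with the lowest ratios in the full comparison, moved from -6.30 to 0.64 and from -5.03 to -0.21 on the log2 scale. Dividing cells were chosen by mitosis genes, and the other cells by markers that include the mural list. The moves of mitosis and mural genes were therefore built into the filter and decide nothing.

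**Figure D4:**
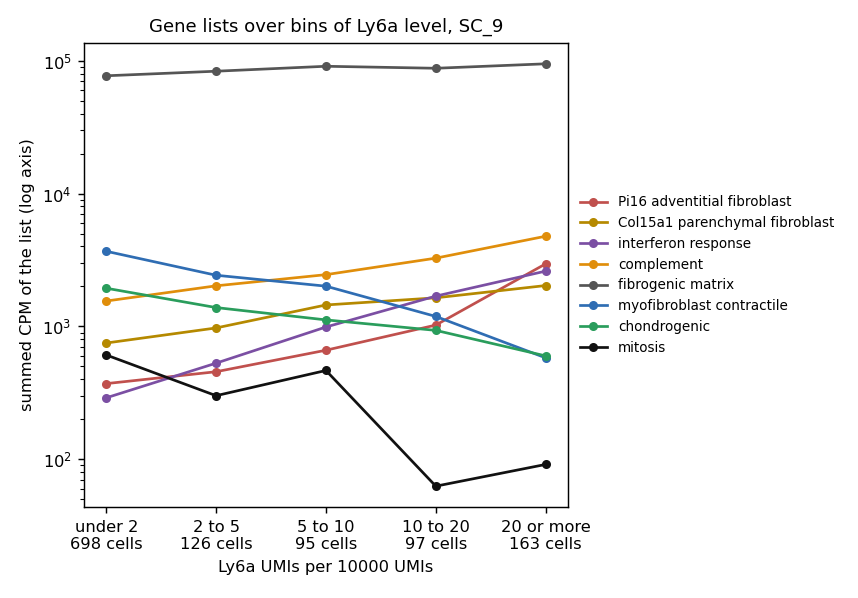
Summed CPM (log axis) of 8 gene lists, rule genes left out, in cells of SC_9 with fewer than 5 Col2a1 UMIs, grouped by their Ly6a UMIs per 10000 (698, 126, 95, 97 and 163 cells). Interferon, complement and Pi16 lists stood higher and contractile and cartilage lists lower in each successive group.

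Several lists stepped with the Ly6a level over the cells of SC_9 with fewer than 5 Col2a1 UMIs, the intermediate cells included. The 259 cells with 5 or more, a limit that bears on the cartilage list, were left out. From the lowest to the highest of 5 groups of Ly6a level, the interferon list summed to 290, 529, 990, 1692 and 2610 CPM. The complement list summed to 1553, 2022, 2454, 3267 and 4778 CPM. The Pi16 list summed to 371, 456, 662, 1024 and 2961 CPM, with the widest step between the last pair of groups. The cartilage list ran the other way, at 1940, 1387, 1120, 934 and 600 CPM, and Acan was at 339 CPM in the lowest and 22.7 CPM in the highest group. Fibrogenic genes ran from 77134 to 94936 CPM. These groups are cells of 1 library, and the cuts share the Ly6a counts that chose the members.

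The members were not uniform. In 2000 UMIs drawn per cell, 159 members (61.2%) showed at least 2 genes of the Pi16 list and 134 (51.5%) at least 2 of the Col15a1 list. Both lists were seen in 68 cells, the Pi16 list alone in 91, the Col15a1 list alone in 66 and neither in 35. In Ly6a-low cells the shares were 17.2% and 24.1%. Across the 260 members the level of the Pi16 list was related inversely to that of the Col15a1 list (Spearman's rho -0.39) and of the cartilage list (-0.51) and directly to Cd34 (0.75). The interferon list was related to neither the Pi16 list (-0.10) nor Cd34 (-0.04) by more than a weak rank correlation. These correlations are descriptions over cells of 1 library that share their depth and total. Single genes spread widely: Pi16 ran from 0 through a median of 2.39 to 60.3 UMIs per 10000, Cxcl14 from 0 through 0.346 to 95.7 and Clec3b from 0 through 16.5 to 53.8. Myoc (myocilin) had a UMI in 93 members (35.8%, against 2.56% of cells with Col2a1), and the tenth of members with the highest level carried 82.9% of its per-cell level.

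The same split was then tested in the 4 libraries that did not enter the rule, with UMIs summed per library and group and the library as a block (edgeR's quasi-likelihood test, Benjamini-Hochberg adjusted p under 0.05). Of 13757 genes tested, 194 (1.41%) were higher and 62 (0.451%) lower in Ly6a-high cells. Leaving out 1 library at a time gave 11 to 1196 higher genes: 11 without SC5, 16 without SC4, 33 without SC10 and 1196 without the uninjured library SC3. The lower genes then numbered 5, 10, 22 and 1204. With DESeq2 the counts were 668 and 453. Of the 477 genes at least 2-fold higher in SC_9 besides Ly6a, 139 (29.1%) were called higher and none lower, and these were 71.6% of the genes called higher. Of the 356 lower in SC_9, 9 (2.53%) were called lower and none higher.

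Of the 20 genes highest in SC_9, 15 passed the test and 19 were above 0 in each of the 4 libraries. The log2 ratio of Pi16 was 5.66 in SC_9 and 4.23, 5.09, 4.59 and 5.66 in SC3, SC4, SC5 and SC10 (log2 fold change 4.86, edgeR adjusted p = 0.00374). That of Ly6c1 was 6.39 in SC_9 and 4.72, 4.18, 3.85 and 4.15 in the others (edgeR adjusted p = 0.00201), and that of C3 was 3.07 in SC_9 and 2.65, 3.00, 2.66 and 3.01 (edgeR adjusted p = 0.00201). Clec3b (edgeR adjusted p = 0.0299), Tnxb (edgeR adjusted p = 0.0408), Dpp4 (edgeR adjusted p = 0.0134) and Ccl8 (edgeR adjusted p = 0.0210) also passed. Sfrp4 did not, with 6.47 in SC_9 and 0.34, 2.51, 0.57 and 2.66 elsewhere (edgeR adjusted p = 0.174), nor did Cxcl14, which was below 0 in SC3 at -0.77 (edgeR adjusted p = 0.407). Rsad2 was the gene not above 0 throughout, at -0.19 in SC3. Whether a gene's ratio in SC_9 differed from that in other libraries was not tested.

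By list, beside the 1.41% called higher and 0.451% called lower over all genes, the interferon genes had 9 of 15 called higher and none lower, Zbp1 with the lowest adjusted p (edgeR adjusted p = 0.00201), and the complement genes 7 of 11. The Pi16 list had 7 of 18 called higher with all 18 above 0. The resting matrix list had 5 of 17, the Ly6 family 4 of 10 and the Col15a1 list 2 of 16. No gene of the fibrogenic, chondrogenic or mitosis lists was called, and 3 of 9 osteogenic genes were called lower. Markers of other cell types also differed: 4 of 6 hematopoietic, 2 of 9 mural, 1 of 7 tenocyte and 1 of 3 erythroid markers were called lower and 1 of 5 endothelial markers, Tek, higher. Cells with at least 2 markers of another type were 68.1% of Ly6a-low and 5.34% of Ly6a-high cells in SC3, where 43.0% of Ly6a-low cells bore mural and 25.3% tenocyte markers. In SC4, SC5 and SC10 they were 16.0%, 18.3% and 17.3% of Ly6a-low and 5.09%, 3.23% and 13.4% of Ly6a-high cells. With such cells left out of the Ly6a-low group, 372 genes were called higher and 165 lower. Col3a1 narrowly missed the threshold (log2 fold change 1.09, edgeR adjusted p = 0.0515). Of the 15 genes lowest in SC_9, Myh11, Rgs5 and Ibsp passed (edgeR adjusted p = 0.0457, 0.0327 and 0.0110). With cells bearing markers of other types left out of the Ly6a-low group, Myh11 and Rgs5 turned to log2 fold changes of 0.78 and 0.28. They were then not called, while Ibsp kept its direction and its call. That filter works by markers that include the mural list, so a rise of mural genes was built into it. The turn of Myh11 and Rgs5 therefore decides nothing. Slpi was 20.4-fold lower in SC_9, whereas its log2 ratio in the other libraries was -3.48, 0.03, -0.58 and 0.81 (edgeR adjusted p = 0.849).

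**Figure D5:**
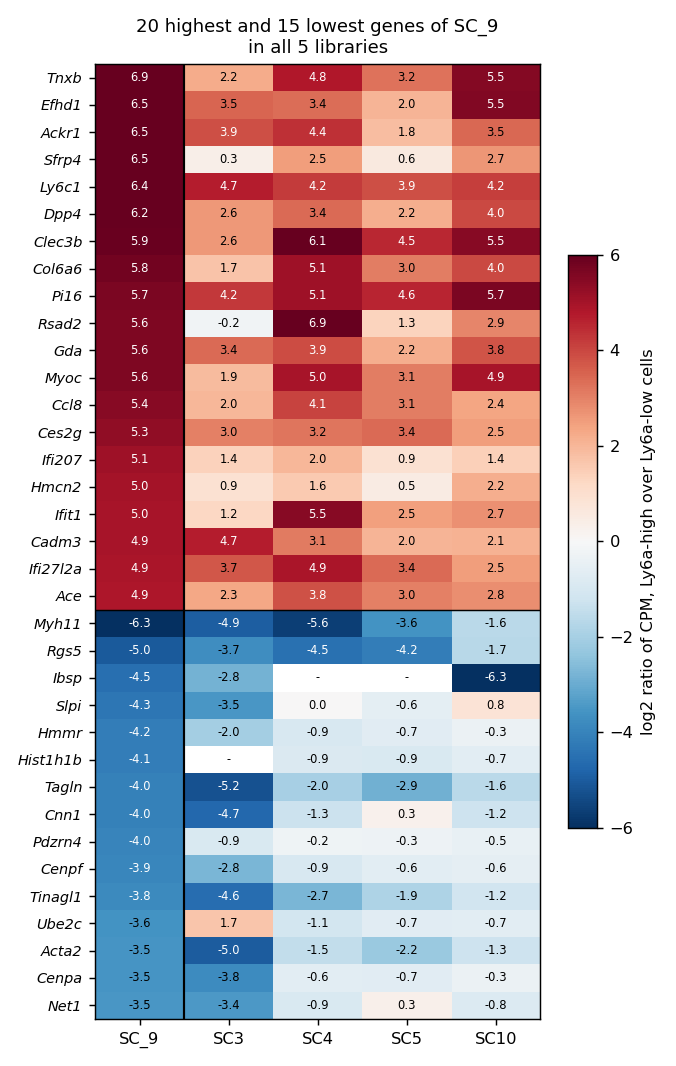
Log2 ratio of CPM, Ly6a-high over Ly6a-low cells, for the 20 highest and 15 lowest genes of SC_9 (rows) in SC_9 and the 4 other libraries (columns). The color scale ends at 6 in either direction, and a dash marks a gene with at most 3 UMIs in both groups. The upper rows keep their sign in all libraries but for Rsad2 in SC3, whereas several lower rows, Slpi and Ube2c among them, do not.

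Levels in Ly6a-high cells themselves differed between the libraries, which had different depths and were 1 per condition, so the values are set side by side without a test. The Pi16 list summed to 5813 CPM in Ly6a-high cells of the uninjured library, 850, 667 and 675 CPM in SC4, SC5 and SC10, and 2186 CPM in SC_9. The resting matrix list followed this order, at 67713, 8048, 4987, 7805 and 21053 CPM for SC3, SC4, SC5, SC10 and SC_9. The fibrogenic list was lowest in the uninjured library, at 17248 CPM, and highest in SC_9, at 92108 CPM. Cd34 was at 1207 CPM in the uninjured library, 451 CPM in SC_9 and 124, 90.0 and 140 CPM in SC4, SC5 and SC10. The interferon list summed to 792, 730, 1155, 834 and 2243 CPM in the same order of libraries as the resting matrix list. Dividing cells were 1.80% of Ly6a-high cells in the uninjured library and 2.31% in SC_9, against 28.5%, 33.9% and 35.8% in SC4, SC5 and SC10. Several of these values were shared with the other cells of SC_9. The resting matrix list of Ly6a-low cells was likewise highest in SC3, at 29194 CPM, with SC_9 next at 7797 CPM. SC4, SC5 and SC10 stood at 3189, 2726 and 4498 CPM. In Ly6a-low cells the fibrogenic list summed to 77134 CPM in SC_9, against 26446, 25277, 14320 and 45522 CPM in SC3, SC4, SC5 and SC10, and dividing cells were 20.3% in SC_9, 1.72% in SC3 and 55.2%, 53.5% and 46.6% in SC4, SC5 and SC10. The Pi16 list was at 371 CPM in Ly6a-low cells of SC_9 and at 358, 367 and 361 CPM in those of SC4, SC5 and SC10, and at 1022 CPM in those of SC3.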

How the data were processed

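Cells were sorted for GFP and read with 10x Genomics 3′ chemistry (v.2). The authors deposited filtered matrices of UMI counts per gene and cell for 5 libraries. The file headers name Cell Ranger 3.1.0, and the submitters' processing notes add mm10 and Seurat 3.1.2. The deposited counts were not normalized. Total counts per library were 18247307 (SC3), 100403837 (SC4), 103780343 (SC5), 56084145 (SC_9) and 204474562 (SC10). Members and gene lists were chosen with earlier results of these data known.

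UMIs were summed over cells and divided by the group total (CPM). Genes with 20 CPM in either group were compared, a group at 0 was set to 3 UMIs, and ratios carry exact (Clopper-Pearson) 95% intervals for counting error. A gene was called at 2-fold. The text names the 20 highest and 15 lowest ratios (without Ly6a, Col2a1, mitochondrial, Gm and Rik genes) and genes of 33 lists. Scrublet's own threshold (scanpy 1.11.5) called 1 cell of SC_9, so doublets were kept, and an alternative left out the 28 highest scores. The paired test used edgeR 4.0.16 on sums of counts, with filterByExpr and TMM, and DESeq2 1.42.0 as an alternative. Both steps were tested on simulated data. Gene positions are from GENCODE M21.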

Additional observations from a re-analysis of the deposited data

Results flagged for a closer look

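In SC_9, 14 cells met the limit of 10 Ly6a UMIs per 10000 and held 5 or more Col2a1 UMIs, which kept them out of the comparison. The other libraries held 0 such cells, which is why the count is given. Cells with 5 or more Col2a1 UMIs at any Ly6a level numbered 1, 2 and 0 in SC3, SC4 and SC5, so a 0 there carries little information, and 124 in SC10 and 259 in SC_9. Both genes are those the selection used, so the count is a description.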

How the results depend on the processing

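Over the alternatives in SC_9, 298 of 455 values of the 20 highest and 15 lowest genes stayed within their counting interval, 152 moved outside it and 5 reversed. Of 173 list or ranked genes past 2-fold, 124 were so in every setting but those on the CPM minimum and 49 were not, Pdgfra, Col3a1 and Penk among them. Of 364 list medians, 202 were counted as the same, 160 as moved and 2 as reversed. The fibrogenic median, near 0 throughout, was counted as moved where it changed sign from -0.12 to 0.04. The share of Ly6a-high cells was 24.7% with the limit at 5 Ly6a UMIs per 10000 and 11.3% at 20. In SC_9 the genes higher numbered 1272 with a minimum of 10 UMIs and 293 with one of 50 CPM, and those lower 1839 and 180. The genes lower numbered 234 with Ly6a at 5, 569 without the Col2a1 limit in Ly6a-low cells and 692 in 2000 UMIs drawn per cell. With cells of other types left out of the Ly6a-low group, the mural list median turned from -2.53 to 0.71, Myh11 to 0.26 and Rgs5 to 1.17 on the log2 scale. Those cells were found by markers that include the mural list and were removed from the Ly6a-low group only. A rise of mural genes was thus built into the filter, and the turn decides nothing. With cells of other types and dividing cells left out of both groups, a setting chosen after seeing the data, the mural list was at 0.21, Myh11 at 0.64 and Rgs5 at -0.21. Cenpf turned to 0.27 without dividing cells and 0.28 without both kinds. Dividing cells were chosen by mitosis genes, so a rise of such genes was built in here too.

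In the other 4 libraries the genes called higher numbered 668 with DESeq2, 374 with no filter on low counts, 94 with Ly6a at 5 and 372 with cells of other types left out. Those called lower numbered 453, 292, 26 and 165, and 113 without dividing cells. Without the library block edgeR called 0 higher and 0 lower (269 and 239 at an unadjusted p under 0.05). Leaving out 1 library gave 11 to 1196 higher and 5 to 1204 lower. Without cells of other types Myh11 turned to 0.78 and Rgs5 to 0.28, a rise that the filter on mural markers builds in. Of 213 values there of named genes that passed the test, 150 were still called, 61 were not and 2 reversed. The cause of the other changes was not tested. No condition has a replicate library, the ratios within SC_9 have none either, and depth limits genes near 20 CPM.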

Other observations

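Lipid and receptor genes divided in the Ly6a-high cells of SC_9, whereas 15 of 16 immediate early genes had a log2 ratio above 0. Of 9 adipogenic and lipid genes tested, 4 were at least 2-fold higher and 1 lower. Lpl (lipoprotein lipase) was at 265 against 51.6 CPM, Rarres2 (chemerin) at 235 against 25.8 CPM and Fabp4 at 5.04 against 36.1 CPM, while Adipoq was at 0 in both groups. Of 16 growth factor receptors, Pdgfra, Tgfbr2 (2.18-fold) and Tgfbr3 (2.11-fold) were at least 2-fold higher and Fgfr2 2.72-fold lower. Of 16 immediate early genes, 4 were at least 2-fold higher, Atf3 most (1446 against 374 CPM), while Fos and Jun were 1.25-fold and 1.19-fold higher. Hyaluronan synthase Has1 was at 902 against 145 CPM and Itih5, a hyaluronan-binding protein, at 209 against 8.31 CPM, whereas Has2 was at 114 CPM in both groups. Of 13 metalloproteinase and TIMP genes, 5 were higher and 1 lower, among them the aggrecanase Adamts5 at 349 against 42.6 CPM. Of 10 S phase genes, 4 were at least 2-fold lower. Of the Schwann and perineurial markers 2 reached 20 CPM, S100b within 1.05-fold and Slc2a1 2.11-fold lower. Of all these, the edgeR test in the other 4 libraries called Pdgfra alone (edgeR adjusted p = 0.0293).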
